A study of Mus musculus with 6 samples.

Results

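Organic ion and drug transporters move organic anions, cations, zwitterions, bile salts, conjugates and drugs across cell membranes. The genes described here are those whose array symbol starts with Slc22a, Slco, Slc47a, Abcb, Abcc or Abcg, together with C730048C13Rik, now named Slc22a30. The rule found 61 genes among the 20416 genes of the array table that carry their own symbol. Of these, 36 are solute carriers and 25 are ATP-binding cassette (ABC) transporters.

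Kidneys of mice with renal fibrosis induced by TGFbeta were measured on 6 arrays, 3 for CBAxB6-TGFbeta (replicates 4, 5 and 6) and 3 for B6-TGFbeta (replicates 1, 2 and 3). The group names point to a mixed background of the CBA and B6 inbred strains and to the B6 background. The labels also mark CBAxB6-TGFbeta as KO and B6-TGFbeta as WT without naming a gene, so that a difference of background and a difference of genotype cannot be told apart, and no targeted gene could be checked. All mice of both groups carry TGFbeta in their names and induced renal fibrosis as their state, and the labels do not say how TGFbeta was raised or from which promoter, nor the ages and the sex, beyond a statement that cohorts were matched littermates. No kidneys without TGFbeta were analysed here, so a difference that exists between the backgrounds at rest and a different response to TGFbeta cannot be told apart. Nothing in the labels says more about how the 3 samples of a group were obtained, and p-values measure the spread between these arrays, which may be technical.

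In the proximal tubule, organic anion transporters of the Slc22a family take up anions from the blood side in exchange for dicarboxylates, and organic cation transporters take up cations along the membrane potential. Exit into the urine runs through the proton exchangers of the Slc47a family (MATE) and through ABC pumps such as the multidrug resistance proteins of the Abcc family (MRP) and P-glycoprotein. The organic anion transporting polypeptides (OATP), encoded by Slco genes, carry larger amphipathic anions, among them bile salts, steroid conjugates, thyroid hormones and prostaglandins. In kidney these systems are known for the secretion of drugs and of waste products of metabolism.

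Values are log2 intensities per gene, combined over the array rows (probe sets) of that gene. Each difference is the mean of CBAxB6-TGFbeta minus the mean of B6-TGFbeta. A negative difference means a lower signal in CBAxB6-TGFbeta, called a lower level here. Whether the probes match the sequences of both backgrounds equally well was not checked, so signal and RNA amount may differ between the groups. Median intensities of the arrays lay between 7.27 and 7.34, and array correlations over all rows ranged from 0.953 to 0.963 within CBAxB6-TGFbeta, from 0.965 to 0.971 within B6-TGFbeta and from 0.946 to 0.954 between the groups. The median difference over all 20416 genes was 0.02. In tissue RNA, fewer cells of a type and less RNA per cell cannot be told apart. Marker genes of other tissues stood out on some arrays: the mean level of 5 adrenal markers was 9.13 on B6-TGFbeta replicate 2 and 6.85 on replicate 1, against 5.81 to 5.93 on the CBAxB6-TGFbeta arrays and 5.90 on B6-TGFbeta replicate 3. The mean of 6 fat markers was 9.10 on B6-TGFbeta replicate 2, and between 6.11 and 7.12 on the other arrays.

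Genes that encode OAT1, OAT3, OCT2, OCTN2 and MATE1, carriers known from the proximal tubule, were among those lower in CBAxB6-TGFbeta kidneys. At an adjusted p under 0.05 in limma with Benjamini-Hochberg adjustment over all genes, 16 of the 61 genes were lower in CBAxB6-TGFbeta and 1 was higher, while 44 did not pass. Over all genes, 4.57% passed as lower and 3.08% as higher. The 16 lower genes were 11 Slc22a genes, 2 Slco genes, Slc47a1, Abcc2 and Abcb8. The higher gene was Slc22a15. The median difference over the 61 genes was -0.18, with 34 genes below 0 and 27 above 0.

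The solute carriers and the ABC transporters had different counts. The 36 solute carriers held 14 lower genes and the 1 higher gene, and their median difference was -0.25. The 25 ABC transporters held 2 lower genes and no higher gene, and their median difference was -0.005. This difference between the families was not tested. Of the 61 genes, 16 belonged to the dimmest 25% of all genes by mean intensity, and none of those passed. Few genes of any kind passed there: 0.49% of all genes in the dimmest 25% passed as lower and 1.39% as higher. Among the 45 brighter genes the median difference was -0.30, against -0.002 for all genes outside the dimmest 25%.

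The groups did not overlap for 26 of the 61 genes, and over all genes this share was 26.8%. These 26 were the 17 genes that passed and Abcc4, Abcb6, Abcb10, Abcg3, Slc22a17, Slc22a21, Slco1a1, Slco1a5 and Slco6c1. The number of lower genes depended on how the rows of a gene were combined and on the number of arrays. With 1 array left out and the summary by median polish redone, it was 5, 1 and 9 without CBAxB6-TGFbeta replicates 4, 5 and 6. Without B6-TGFbeta replicates 1, 2 and 3 it was 2, 1 and 1. The share of all genes that passed as lower fell too. It was 0.842%, 0.348% and 1.64%, and 0.176%, 0.206% and 0.176%, in the same order. The plain mean of the rows in place of median polish was an alternative added after the data were seen. There the same omissions gave 17, 14 and 16 lower transporter genes without CBAxB6-TGFbeta replicates 4, 5 and 6. Without B6-TGFbeta replicates 1, 2 and 3 they gave 11, 13 and 13. Of all genes, 2.13% to 5.0% passed as lower in these fits. The lower count was 4 with the brightest row alone (1.38% of all genes), and 1 without moderation of the variances (0.196% of all genes). With replicate 3 as the sole B6-TGFbeta array it was 1, but the 3 CBAxB6-TGFbeta arrays alone then give the spread, the lone array is assumed to vary like them, and 0.0735% of all genes passed as lower, so that this count says nothing about stability.

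**Figure D1:**
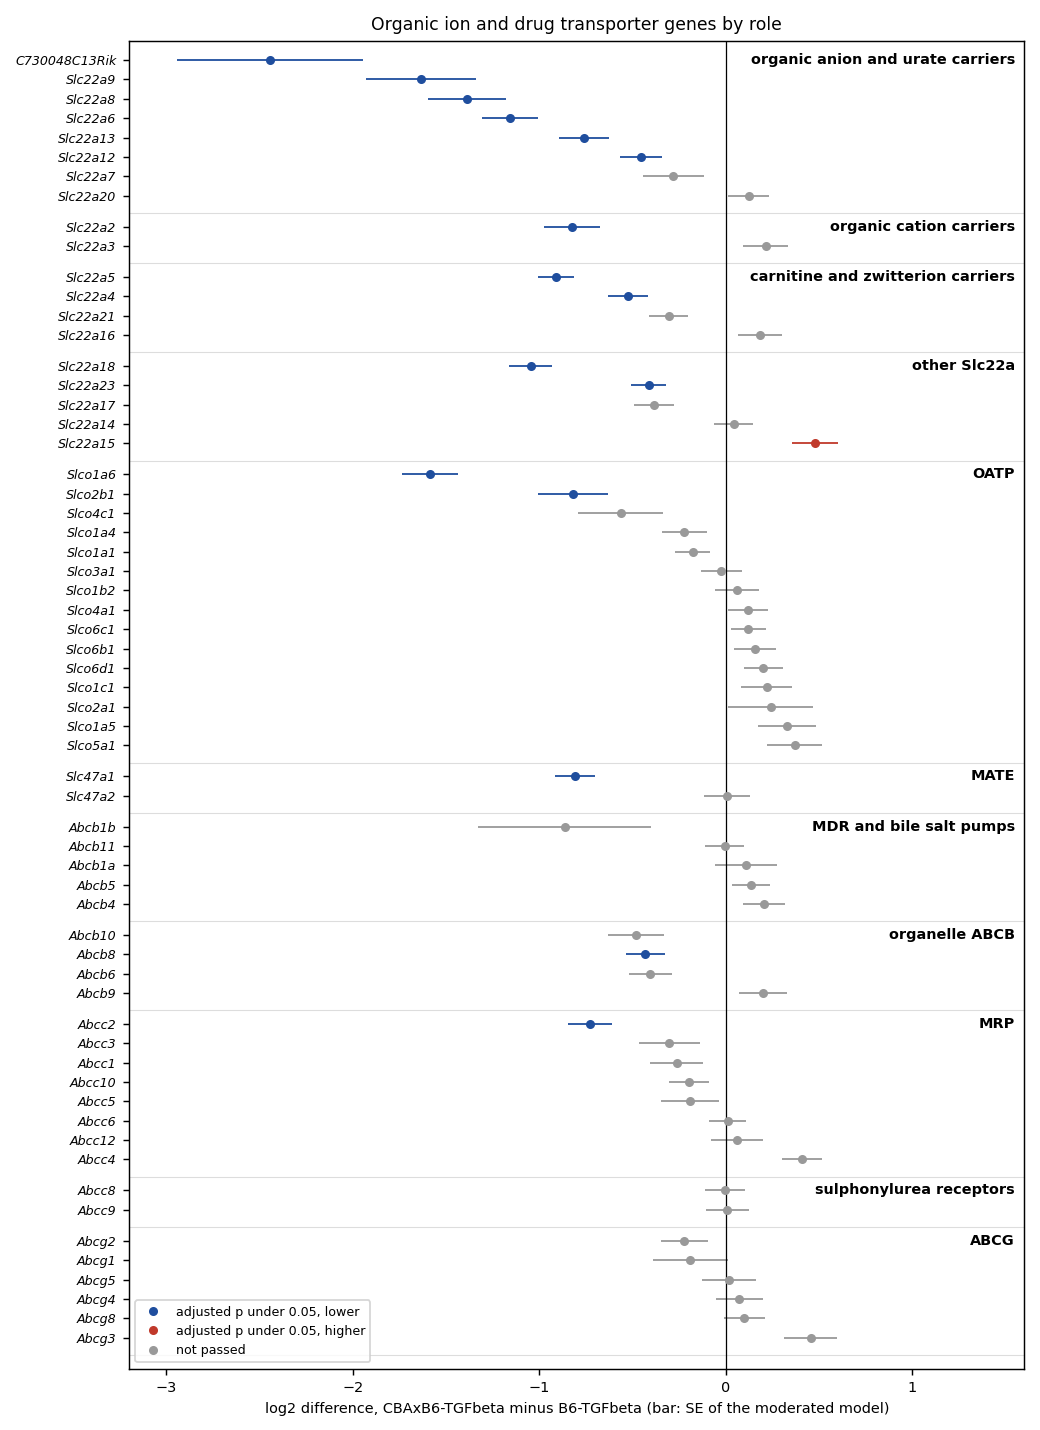
Log2 difference of each of the 61 transporter genes (CBAxB6-TGFbeta minus B6-TGFbeta, horizontal axis), grouped by role. Points are differences, bars are standard errors of the moderated model, and colour marks the 16 lower genes and the 1 higher gene; most of the lower genes stand in the upper panels of Slc22a carriers.

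The organic anion and urate carriers had the largest share of lower genes among the roles with at least 5 genes. Lower levels were found for 6 of the 8 genes, 2 did not pass, and the median difference was -0.96. The 6 include the array symbol Slc22a9, placed in this role by its symbol although the gene that its rows measure was not settled. Slc22a8 encodes OAT3, an anion exchanger on the blood side of the proximal tubule. Its levels were 9.65, 10.42 and 10.57 on the CBAxB6-TGFbeta arrays, against 11.60, 11.66 and 11.54 on the B6-TGFbeta arrays. There was no overlap between the groups, the B6-TGFbeta arrays lay close together, and CBAxB6-TGFbeta replicate 4 was the lowest. The level was 2.62-fold lower in CBAxB6-TGFbeta (log2 difference -1.39, SE 0.21, limma adjusted p 0.00533), and all 13 rows of the gene were below 0. Slc22a8 passed in 16 of 24 alternatives, and not with the brightest row alone (limma adjusted p 0.0679). Under median polish it passed in 2 of 6 omissions of an array. Slc22a6 encodes OAT1, the para-aminohippurate exchanger of the same membrane. It measured 8.52, 9.05 and 9.04 on the CBAxB6-TGFbeta arrays and 10.06, 10.11 and 9.91 on the B6-TGFbeta arrays. Here too replicate 4 was the lowest and the groups were apart. The level was 2.23-fold lower (log2 difference -1.16, SE 0.15, limma adjusted p 0.0026), with all 11 rows below 0. Slc22a6 also passed in 16 of 24 alternatives and in 2 of 6 omissions under median polish, and not with the brightest row alone (limma adjusted p 0.215).

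In the RefSeq order of genes, Slc22a8 and Slc22a6 are neighbours, and C730048C13Rik is next to Slc22a8 on its other side. All 3 of these neighbouring genes passed as lower. The promoters of Slc22a8 and Slc22a6 are shown because these carriers are known targets of HNF1 factors in mouse and human kidney, and because both levels were lower. Each window holds 250 bases before the annotated start and 50 after it, from RefSeq on GRCm38.p6, forward strand, and capitals mark GTTAAT, a core sequence of HNF1 sites. For Slc22a8 the window is chr19:8592932-8593231, and GTTAAT lies 81 to 76 bases before the start. For Slc22a6 the window is chr19:8617746-8618045, and GTTAAT lies 56 to 51 bases before the start.
Slc22a8: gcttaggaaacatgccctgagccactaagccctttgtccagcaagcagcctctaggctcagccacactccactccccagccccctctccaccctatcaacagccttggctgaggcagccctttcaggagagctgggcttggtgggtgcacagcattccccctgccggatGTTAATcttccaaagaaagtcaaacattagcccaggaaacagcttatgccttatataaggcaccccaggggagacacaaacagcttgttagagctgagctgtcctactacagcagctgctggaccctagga
Slc22a6: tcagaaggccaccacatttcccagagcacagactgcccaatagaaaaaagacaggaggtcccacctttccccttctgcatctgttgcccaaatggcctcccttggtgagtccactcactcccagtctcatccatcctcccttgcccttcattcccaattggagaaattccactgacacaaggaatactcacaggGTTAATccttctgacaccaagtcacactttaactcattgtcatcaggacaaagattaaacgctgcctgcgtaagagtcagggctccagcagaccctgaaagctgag

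The sequence GTTAAT was searched on both strands in 32851 RefSeq promoter windows of the same length, and 7.1% of all windows held it. Of the 57 windows that belong to 48 of the transporter genes, 5.26% held it, in Slc22a6, Slc22a8 and Slco1b2. Slco1b2 did not pass (log2 difference 0.06). The HNF4 sequence CAAAGTCCA was in 0.475% of all windows and in none of the transporter windows. The HNF4 variant TGAACTTTG was in 0.39% of all windows and in those of Abcb1a, Slc22a3 and Slco1a6, of which Slco1a6 was lower. The NRF2 response element TGACNNNGC was in 12.4% of all windows and in 17.5% of the transporter windows. These belonged to Abcb1a, Abcc2, Abcc4, Abcc10, Slc22a20, Slco4c1, Slco6b1 and Slco6d1, of which Abcc2 was lower and the others did not pass. A match is a run of letters in this window and was not tested as a binding site.

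C730048C13Rik, a Slc22a gene of the same anion carrier branch, had the largest difference of the 61 genes. It measured 4.98, 5.91 and 7.51 on the CBAxB6-TGFbeta arrays and 8.71, 8.65 and 8.38 on the B6-TGFbeta arrays. The CBAxB6-TGFbeta arrays were spread widely, with replicate 6 nearest to the B6-TGFbeta arrays, and the groups did not overlap. The level was 5.45-fold lower (log2 difference -2.45, SE 0.50, limma adjusted p 0.0201), with all 5 rows below 0. The size rested in part on single arrays: without CBAxB6-TGFbeta replicate 6 the log2 difference of C730048C13Rik was -3.15 (limma adjusted p 0.0212), and without replicate 4 it was -1.87 (limma adjusted p 0.149). Under median polish the gene passed in 1 of 6 omissions of an array, and on the mean of rows in all 6. A further 13 rows name C730048C13Rik together with its close relatives D630002G06Rik, now Slc22a29, or Gm5631, now Slc22a28. These rows cannot be assigned to a single gene and did not enter the gene values. All 13 were below 0 with no overlap between the groups, with differences between -2.96 and -1.01 and a median of -2.01.

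The array symbol Slc22a9 is an older name of 2 genes in the RefSeq table, Slc22a19 and Slc22a21, and Slc22a21 has rows of its own under its current symbol. Which gene the rows named Slc22a9 measure was not settled. They measured 6.08, 6.34 and 7.39 on the CBAxB6-TGFbeta arrays and 8.47, 8.31 and 7.94 on the B6-TGFbeta arrays. As for C730048C13Rik, replicate 6 was the highest CBAxB6-TGFbeta array, and the groups did not overlap. The level was 3.11-fold lower (log2 difference -1.64, SE 0.29, limma adjusted p 0.0119), with all 10 rows below 0.

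Slc22a13 encodes OAT10, a carrier of nicotinate and urate. Its levels were 7.31, 7.51 and 7.77 on the CBAxB6-TGFbeta arrays and 8.35, 8.13 and 8.38 on the B6-TGFbeta arrays. The groups were apart, and the log2 difference was -0.76 (SE 0.13, limma adjusted p 0.0109). Slc22a13 passed in 14 of 24 alternatives, and in no omission of an array under median polish. Slc22a12 encodes URAT1, the urate exchanger of the brush border. It measured 7.43, 7.77 and 7.66 on the CBAxB6-TGFbeta arrays and 7.99, 8.12 and 8.12 on the B6-TGFbeta arrays. No CBAxB6-TGFbeta array reached a B6-TGFbeta array, and the log2 difference was -0.46 (SE 0.11, limma adjusted p 0.0426), with all 12 rows below 0. Slc22a12 passed in 8 of 24 alternatives, and not with a repeated quantile normalization or median centring. Slc22a7, which encodes OAT2, had a log2 difference of -0.28 (SE 0.16, limma adjusted p 0.368), and CBAxB6-TGFbeta replicate 6 lay above all 3 B6-TGFbeta arrays. Slc22a20, which encodes OAT6, had a log2 difference of 0.12 and did not pass.

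Markers of several kidney cell types moved with these carriers. Of 10 proximal tubule markers, 7 were lower and none was higher, and their mean level was 10.59 to 11.10 on the CBAxB6-TGFbeta arrays and 11.71 to 11.85 on the B6-TGFbeta arrays. The fall was not tested as particular to any cell type: lower genes were also 4 of 5 markers of the loop and distal tubule (median log2 difference -0.86, against -0.82 for the proximal tubule markers), 2 of 5 collecting duct markers (median -0.51) and 2 of 5 endothelial markers (median -0.32). The proximal tubule markers also differed among themselves. Slc34a1, the phosphate carrier of the brush border, had a log2 difference of -1.88, and Keg1, an acyltransferase-like gene of the proximal tubule, one of -0.05. Macrophage markers moved the other way, with 4 of 5 higher and mean levels of 8.16 to 8.76 in CBAxB6-TGFbeta and 7.07 to 7.38 in B6-TGFbeta. The part of the cell mixture in the transporter differences was not tested.

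**Figure D2:**
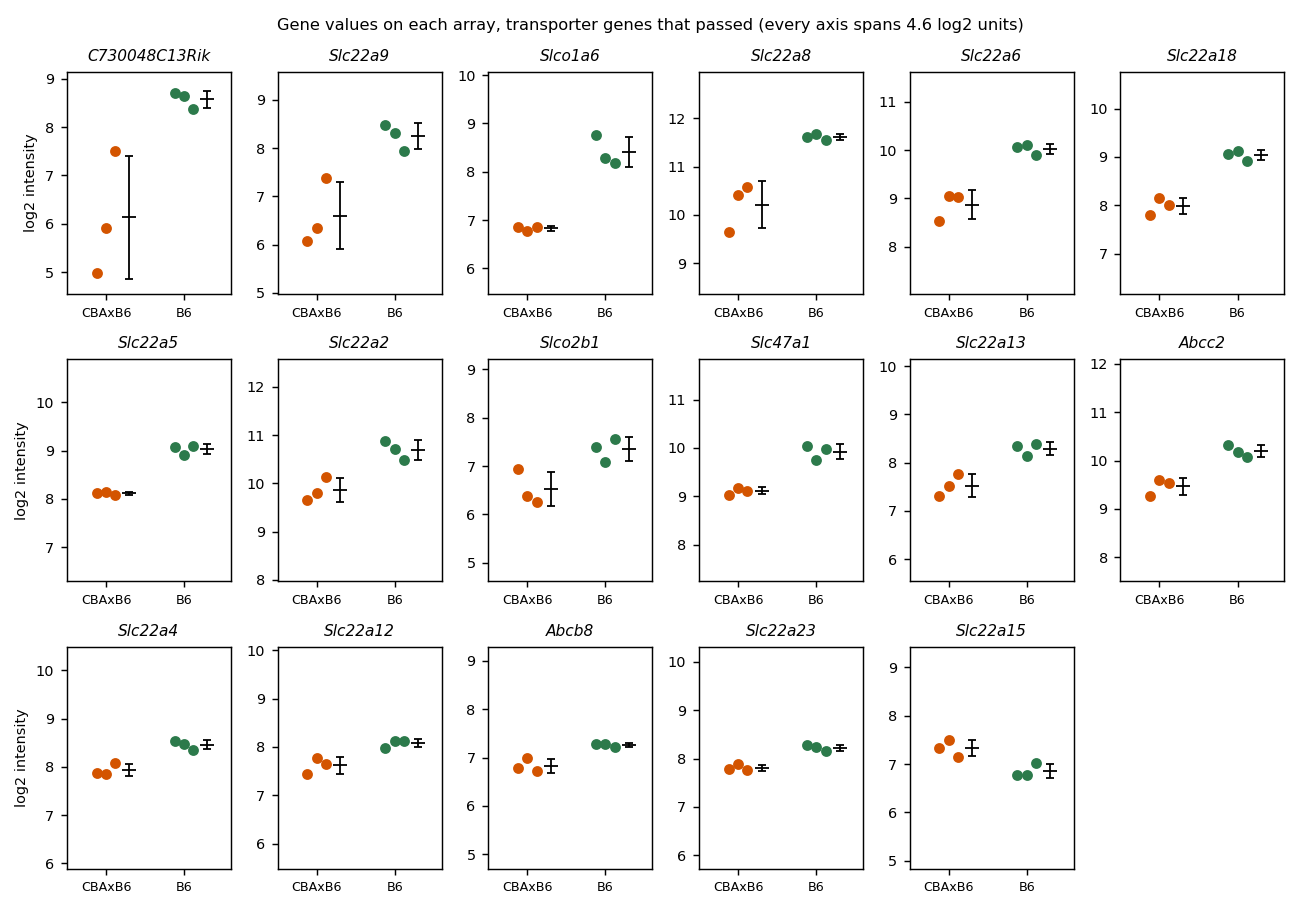
Log2 intensity of the 17 transporter genes that passed, with 1 panel per gene, 1 point per array, and the mean with SD beside the 3 points of each group (CBAxB6-TGFbeta left, B6-TGFbeta right). All vertical axes span the same number of log2 units; the groups are apart in every panel, and C730048C13Rik has the widest spread, within CBAxB6-TGFbeta.

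Of the organic cation carriers, Slc22a2 was lower and Slc22a3 did not pass. Slc22a2 encodes OCT2, which takes up cations such as creatinine and metformin from the blood side of the proximal tubule. Its levels were 9.65, 9.81 and 10.13 on the CBAxB6-TGFbeta arrays, against 10.88, 10.70 and 10.48 on the B6-TGFbeta arrays. The groups did not overlap, and the level was 1.77-fold lower (log2 difference -0.83, SE 0.15, limma adjusted p 0.0118), with all 12 rows below 0. Slc22a3, which encodes OCT3 and is the direct neighbour of Slc22a2, had a log2 difference of 0.21 (SE 0.12, limma adjusted p 0.357), and its groups overlapped.

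The MATE pair showed the same split between neighbouring genes. Slc47a1 encodes MATE1, the proton exchanger through which cations leave the cell at the brush border in mouse and human. It measured 9.03, 9.18 and 9.12 on the CBAxB6-TGFbeta arrays and 10.04, 9.75 and 9.98 on the B6-TGFbeta arrays. Every CBAxB6-TGFbeta array lay below every B6-TGFbeta array. The level was 1.75-fold lower (log2 difference -0.81, SE 0.11, limma adjusted p 0.00301), and all 19 rows were below 0. The adjacent gene Slc47a2, known in mouse mainly from testis, belonged to the dimmest 25% of genes and had a log2 difference of 0.01. The difference between the neighbours was not tested in either pair.

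Of the 4 carnitine and zwitterion carriers, Slc22a5 and Slc22a4 were lower. Slc22a5 encodes OCTN2, the sodium-dependent carrier that recovers carnitine from the filtrate. Its levels were 8.12, 8.14 and 8.08 on the CBAxB6-TGFbeta arrays and 9.06, 8.91 and 9.10 on the B6-TGFbeta arrays. Both groups were tight and far apart relative to their spread. The level was 1.88-fold lower (log2 difference -0.91, SE 0.10, limma adjusted p 0.001), with all 10 rows below 0. Slc22a5 passed in 22 of 24 alternatives, including each omission of 1 array, and missed only with replicate 3 as the sole B6-TGFbeta array, under both row summaries. Slc22a4 encodes OCTN1, a carrier of ergothioneine. It measured 7.88, 7.85 and 8.08 on the CBAxB6-TGFbeta arrays and 8.54, 8.48 and 8.35 on the B6-TGFbeta arrays. There was no overlap between the groups, and the log2 difference was -0.52 (SE 0.11, limma adjusted p 0.0187). Slc22a4 passed in 10 of 24 alternatives. Slc22a21, which encodes the mouse carnitine carrier Octn3 and lies between these 2 genes, had a log2 difference of -0.31 with all 9 rows below 0, but did not pass (limma adjusted p 0.118). Slc22a16, a carnitine carrier known from testis, was in the dimmest 25% and had a log2 difference of 0.18.

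Of the 5 remaining Slc22a genes, 2 were lower and 1 was higher. Slc22a18, an imprinted carrier gene with a role in cation transport, measured 7.80, 8.14 and 8.01 on the CBAxB6-TGFbeta arrays and 9.07, 9.12 and 8.92 on the B6-TGFbeta arrays. The groups were apart, and the level was 2.07-fold lower (log2 difference -1.05, SE 0.12, limma adjusted p 0.00114), with 11 of 12 rows below 0. Slc22a23, an orphan carrier, measured 7.79, 7.88 and 7.76 on the CBAxB6-TGFbeta arrays and 8.28, 8.24 and 8.16 on the B6-TGFbeta arrays. Its groups did not overlap, and the log2 difference was -0.41 (SE 0.09, limma adjusted p 0.0291). Slc22a15, a zwitterion carrier by work on the human protein, was the higher gene, at 7.34, 7.50 and 7.16 on the CBAxB6-TGFbeta arrays and 6.77, 6.78 and 7.02 on the B6-TGFbeta arrays. Its groups were apart by a small margin, since B6-TGFbeta replicate 3 lay near CBAxB6-TGFbeta replicate 6. The log2 difference was 0.48 (SE 0.12, limma adjusted p 0.0473), with 13 of 14 rows above 0. The row that was below 0 was the brightest, at -0.20. Without any 1 of the 6 arrays Slc22a15 did not pass under median polish, with adjusted p up to 0.681 over all alternatives. Slc22a17, a receptor for lipocalin, had a log2 difference of -0.39 (limma adjusted p 0.0642), and Slc22a14, the neighbour of Slc22a13, one of 0.04.

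Among the 15 OATP genes 2 were lower and 13 did not pass, and 9 of the 15 were in the dimmest 25% of genes. Slco1a6, a mouse gene of the Slco1a cluster, had the smallest adjusted p of the 61 genes. It measured 6.86, 6.76 and 6.85 on the CBAxB6-TGFbeta arrays and 8.77, 8.29 and 8.17 on the B6-TGFbeta arrays. The CBAxB6-TGFbeta arrays lay close together, and no array of either group came near the other group. The level was 3.00-fold lower (log2 difference -1.59, SE 0.15, limma adjusted p 0.000669), and 14 of 15 rows were below 0, with row differences from -2.58 to 0.04. Slco1a6 passed in 20 of 24 alternatives. Its neighbours in the cluster did not pass: the log2 difference was -0.18 for Slco1a1, 0.33 for Slco1a5 and -0.22 for Slco1a4. All 3 of these neighbours were in the dimmest 25% of genes.

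Slco2b1, a steroid sulphate carrier, measured 6.93, 6.39 and 6.26 on the CBAxB6-TGFbeta arrays and 7.39, 7.07 and 7.56 on the B6-TGFbeta arrays. No CBAxB6-TGFbeta array reached a B6-TGFbeta array, though CBAxB6-TGFbeta replicate 4 and B6-TGFbeta replicate 2 lay close together. The log2 difference was -0.82 (SE 0.19, limma adjusted p 0.0312). Slco2b1 passed in 10 of 24 alternatives. Its rows were not uniform, since 15 of 17 were below 0 and the highest stood at 0.84. Slco4c1, the blood-side carrier for digoxin and thyroid hormone in kidney, measured 8.78, 9.13 and 9.84 on the CBAxB6-TGFbeta arrays and 9.87, 9.90 and 9.67 on the B6-TGFbeta arrays. CBAxB6-TGFbeta replicate 6 lay among the B6-TGFbeta arrays, and the log2 difference of -0.57 did not pass (SE 0.23, limma adjusted p 0.19), although all 13 rows were below 0. Without that array the difference of Slco4c1 was -0.87 under median polish (limma adjusted p 0.0502) and -0.89 on the mean of rows (limma adjusted p 0.00241).

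The prostaglandin carrier Slco2a1 measured 9.83, 9.13 and 8.75 on the CBAxB6-TGFbeta arrays and 9.04, 9.05 and 8.90 on the B6-TGFbeta arrays. The CBAxB6-TGFbeta arrays reached both above and below the B6-TGFbeta arrays, and the log2 difference of 0.24 did not pass (SE 0.23). Slco3a1 and Slco4a1, further prostaglandin and thyroid hormone carriers, had log2 differences of -0.02 and 0.12. The remaining OATP genes, Slco1b2, Slco1c1, Slco5a1, Slco6b1, Slco6c1 and Slco6d1, had log2 differences between 0.06 and 0.37, and none passed.

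**Figure D3:**
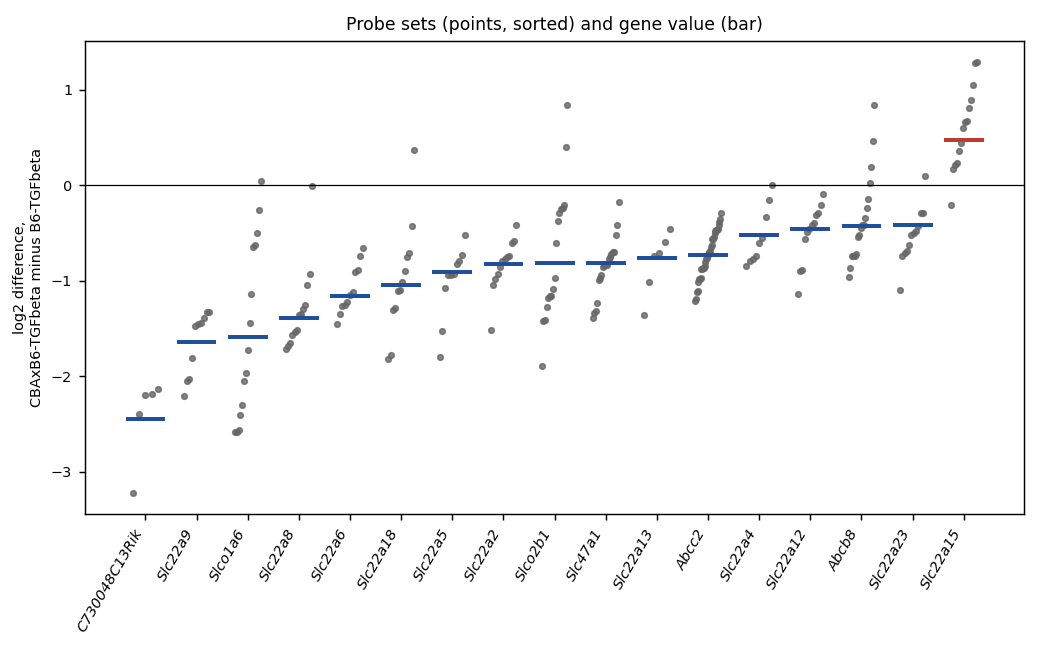
Log2 difference (CBAxB6-TGFbeta minus B6-TGFbeta) of each array row, shown as sorted points, for the 17 transporter genes that passed, with the gene value as a bar. In 10 of the 16 lower genes every row is below 0; Slco1a6 spreads from -2.58 to 0.04 and Abcb8 has rows on both sides of 0.

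Rows of a gene share its RNA and are not replicates. The 16 lower genes had 215 rows, of which 205 were below 0. The calls were made from these same rows, so this count adds no support to them. Of all 1093 rows of the 61 genes, 665 were below 0.

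Of the 8 MRP genes, Abcc2 was lower and the other 7 did not pass. Abcc2 encodes MRP2, the brush border pump for glutathione and glucuronide conjugates. Its levels were 9.27, 9.59 and 9.53 on the CBAxB6-TGFbeta arrays and 10.32, 10.17 and 10.08 on the B6-TGFbeta arrays. The groups did not overlap, and the level was 1.66-fold lower (log2 difference -0.73, SE 0.12, limma adjusted p 0.00751), with all 34 rows below 0. Abcc2 passed in 14 of 24 alternatives. It passed in no omission of an array under median polish and in all 6 on the mean of rows. With the brightest row alone the log2 difference was -0.35 and did not pass (limma adjusted p 0.331). Abcc4 encodes MRP4, a pump for cyclic nucleotides, urate and anionic drugs at the same brush border. It ran the other way, at 8.55, 8.26 and 8.29 on the CBAxB6-TGFbeta arrays and 7.92, 7.96 and 7.99 on the B6-TGFbeta arrays. There was no overlap between the groups and 28 of 31 rows were above 0, but the log2 difference of 0.41 missed the threshold (SE 0.11, limma adjusted p 0.0501). Over 24 alternatives its adjusted p ran from 0.035 to 0.581, and it passed in 5 of them.

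The blood-side pumps of this family did not pass. The log2 difference was -0.30 for Abcc3 (SE 0.16), -0.26 for Abcc1 (SE 0.14) and -0.19 for Abcc5 (SE 0.16). The groups overlapped for each of these. Abcc6, a gene known from ectopic mineralization, had a log2 difference of 0.01, Abcc10 one of -0.20 and Abcc12 one of 0.06. The sulphonylurea receptors Abcc8 and Abcc9, which are channel subunits and not drug pumps, had log2 differences of 0.00 and 0.01 after rounding.

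None of the 5 multidrug resistance and bile salt pumps passed. Mouse P-glycoprotein is encoded by the neighbouring genes Abcb1a and Abcb1b. Abcb1b measured 6.80, 7.09 and 7.07 on the CBAxB6-TGFbeta arrays and 7.57, 9.16 and 6.83 on the B6-TGFbeta arrays. B6-TGFbeta replicate 2 stood far above the rest and replicate 3 lay within the CBAxB6-TGFbeta range. The log2 difference of -0.87 did not pass (SE 0.46, limma adjusted p 0.332), although all 22 rows were below 0. With replicate 3 as the sole B6-TGFbeta array it was 0.05. Abcb1b is known for its high level in mouse adrenal gland, and the adrenal markers were high on the same arrays: Star, the cholesterol carrier of steroid synthesis, measured 5.86, 6.44 and 5.96 on the CBAxB6-TGFbeta arrays and 8.90, 10.74 and 6.46 on the B6-TGFbeta arrays. The part of adrenal RNA in the Abcb1b values was not tested.

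Abcb1a measured 7.57, 7.92 and 7.93 on the CBAxB6-TGFbeta arrays and 7.43, 8.05 and 7.62 on the B6-TGFbeta arrays. Its groups overlapped, and the log2 difference was 0.11 (SE 0.17). Abcb4, Abcb5 and the bile salt pump Abcb11, all in the dimmest 25% of genes, had log2 differences of 0.20, 0.13 and -0.01.

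The 4 ABCB transporters of organelles had a median log2 difference of -0.42, and Abcb8 passed. Abcb8, of the inner mitochondrial membrane, measured 6.78, 6.99 and 6.72 on the CBAxB6-TGFbeta arrays and 7.27, 7.28 and 7.22 on the B6-TGFbeta arrays. No CBAxB6-TGFbeta array reached a B6-TGFbeta array, and the log2 difference was -0.43 (SE 0.10, limma adjusted p 0.0379), with 14 of 18 rows below 0. Abcb8 passed in 7 of 24 alternatives, and not on the mean of rows or in any omission of 1 array. Abcb10 and Abcb6, mitochondrial genes linked to haem synthesis, had groups without overlap and log2 differences of -0.48 and -0.41, but did not pass (limma adjusted p 0.093 and 0.0668). The lysosomal peptide carrier Abcb9 had a log2 difference of 0.20.

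None of the 6 ABCG genes passed, and their median log2 difference was 0.04. Abcg2 encodes BCRP, the brush border pump for urate and sulphated conjugates. It measured 9.55, 9.73 and 9.96 on the CBAxB6-TGFbeta arrays and 10.12, 9.93 and 9.87 on the B6-TGFbeta arrays. The groups overlapped, and the log2 difference was -0.22 (SE 0.13, limma adjusted p 0.358). The cholesterol exporter Abcg1 had a log2 difference of -0.19 (SE 0.20), Abcg3 one of 0.45 (SE 0.14, limma adjusted p 0.0915), and Abcg4, Abcg5 and Abcg8 lay between 0.02 and 0.10.

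Other transporters, scaffolds and regulators that act with these carriers were read from the same fit. Values were available for 34 of 37 such genes, of which 7 passed as lower and none as higher. The other 27 missed the threshold, and the median over the 34 log2 differences was -0.25. Slc13a3 encodes the blood-side dicarboxylate carrier that supplies the exchange ions of OAT1 and OAT3. It measured 8.77, 9.41 and 9.08 on the CBAxB6-TGFbeta arrays and 11.03, 11.04 and 10.76 on the B6-TGFbeta arrays. The groups were far apart, and the log2 difference was -1.86 (SE 0.16, limma adjusted p 0.000509). The brush border dicarboxylate carrier Slc13a2 had a log2 difference of -0.54 (SE 0.14) and did not pass.

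Pdzk1, the scaffold that binds the tails of several brush border carriers, had a log2 difference of -1.02 (SE 0.16). The scaffolds Slc9a3r1 and Slc9a3r2 had log2 differences of -0.23 and -0.49 and did not pass. Among 12 measured transcription factors, 3 were lower: Hnf4a (-0.89, SE 0.14), a nuclear factor of proximal tubule and liver, Ppara (-0.72, SE 0.13), the fatty acid receptor, and Esr1 (-0.75, SE 0.12), an oestrogen receptor. The peptide carrier Slc15a2 (log2 difference -0.84, SE 0.18) and Ostb (log2 difference -0.59, SE 0.15), a subunit of the blood-side bile salt exporter, were the remaining lower genes. Ostb passed narrowly (limma adjusted p 0.0455). Osta, the other subunit, had a log2 difference of -0.09 and did not pass (limma adjusted p 0.849). The urate carriers Slc17a1, Slc17a3 and Slc2a9 had log2 differences of -0.24, -0.39 and -0.38 and did not pass.

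**Figure D4:**
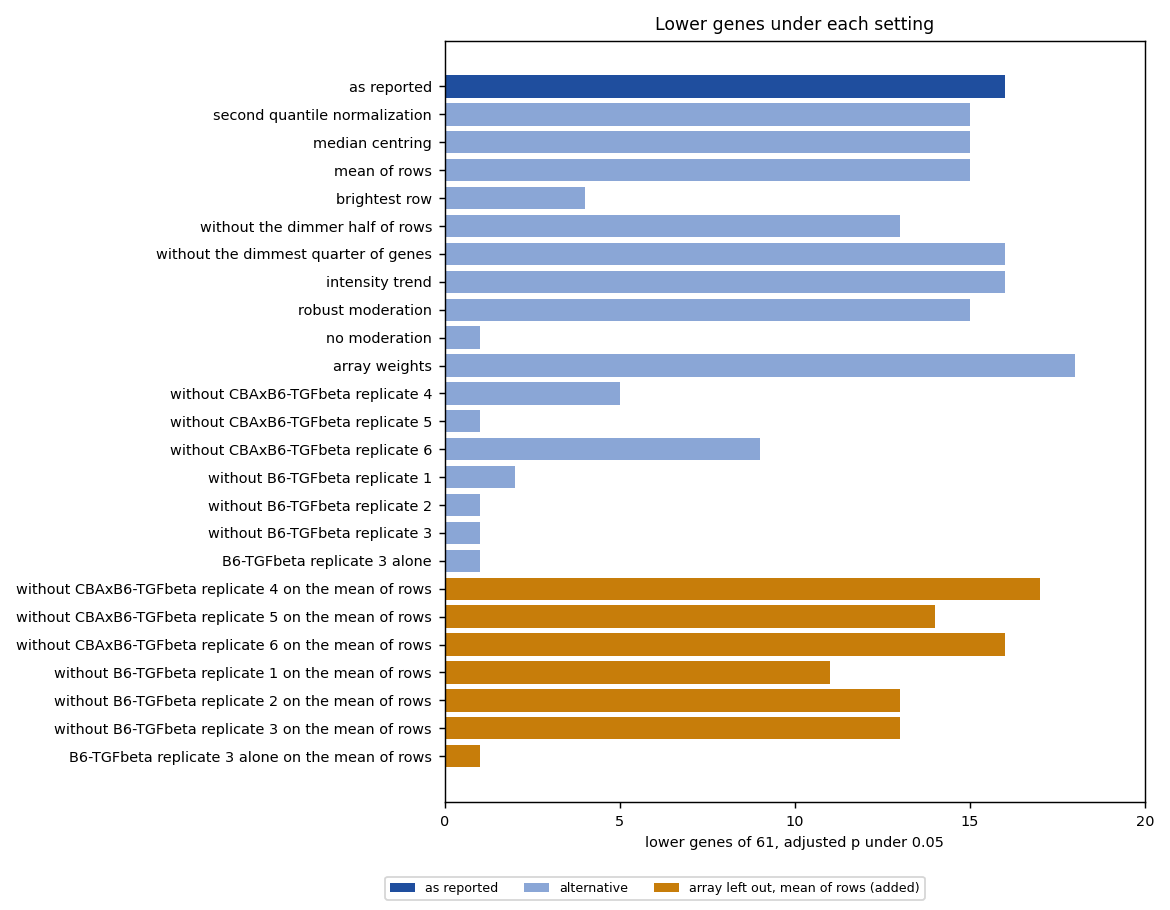
Number of transporter genes of 61 that were lower in CBAxB6-TGFbeta at an adjusted p under 0.05 (horizontal axis) in the reported fit and in each alternative (1 bar each). The bar of the reported fit stands at 16; bars for 1 omitted array range from 1 to 9 with median polish and from 11 to 17 with the mean of rows.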

How the data were processed

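The authors deposited log2 intensities of an Affymetrix mouse array, 1 row per probe set, from total RNA labelled with biotin. The submitters' processing notes name RMA and Partek but no versions or settings, and the sources used here give neither the normalization nor the annotation build.

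Of 241576 rows, 212097 carried 1 gene symbol in the platform annotation. Tukey's median polish over these rows gave 1 value per array for each of 20416 genes, with a median of 8 rows per gene. The 4475 rows with several symbols and 25004 with none were left out of the gene values. Of the 61 symbols, 59 matched a RefSeq gene (GRCm38.p6), which gave neighbours and promoters.

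CBAxB6-TGFbeta was compared with B6-TGFbeta in limma 3.58.1 (R 4.3.3), with 1 group term over all 6 arrays, two-sided, with Benjamini-Hochberg adjustment over all genes and a threshold of 0.05. The number of arrays limits the precision. On simulated data with 20416 genes, the test for this comparison recovered 100% of genes changed by -2, 79.4% at -1 and 33.3% at -0.5 (log2). It recovered 97% at 2, 81.8% at 1 and 21.2% at 0.5, with 5 unchanged genes called. The simulation left 20216 genes unchanged and drew independent normal noise for each gene. In the data 7.65% of all genes passed, so these rates may not hold for this comparison. The genes described, their roles, the partner genes and the marker lists were chosen with earlier results of these data known. Named are every transporter gene that passed, a fixed list of further transporter genes as values, and partner genes that passed, up to 6 per direction by smallest p. Slc13a2, Slc9a3r1, Slc9a3r2, Slc17a1, Slc17a3, Slc2a9 and Osta were named after their values were seen. The passing partner gene beyond these 6 was also named after its value was seen. Alternatives were other normalizations, row summaries, filters, moderation, array weights and omitted arrays.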

Additional observations from a re-analysis of the deposited data

How the results depend on the processing

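The median difference of the 61 genes, -0.18 as reported, stayed below 0 in every alternative run (-0.30 to -0.0505). The lower count, 16 as reported, was 13 to 18 with a repeated quantile normalization, median centring, the mean of rows, removal of dim rows or dim genes, trended or robust moderation, and array weights. It was 4 with the brightest row (1.38% of all genes), 1 without moderation, and 1 with replicate 3 as the sole B6-TGFbeta array under either row summary, where CBAxB6-TGFbeta alone gives the spread and the count says nothing about stability. With 1 array omitted it ranged from 1 to 9 under median polish and from 11 to 17 on the mean of rows; the calls over all genes moved likewise, with 36 to 335 (0.176% to 1.64%) and 434 to 1020 (2.13% to 5.0%) lower genes against 934 as reported, and the cause was not tested. The higher count, 1 as reported, was 2 with quantile normalization, median centring, robust moderation or without dim genes, 3 with array weights, and 0 with the brightest row, without the dimmer rows, with the intensity trend, without moderation, and with B6-TGFbeta replicate 3 alone under either summary. With 1 array omitted it was 0 under median polish and 0 to 2 on the mean of rows.

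Of the 17 genes that passed, 16 kept their sign in all alternatives, none passed in every one, and 11 passed in all 6 omissions of an array on the mean of rows. Of 24 alternatives, Slc22a18 passed in 17, Slc47a1 in 16, Slc22a2 and Slc22a9 in 15, C730048C13Rik in 14, Slc22a23 in 12 and Slc22a15 in 7. Among the named genes, 639 of 883 values kept sign and side of the threshold, 174 lost the call, 10 gained one and 60 changed sign. On the mean of rows, Abcc1 (-0.55) and Abcc3 (-0.51) passed without CBAxB6-TGFbeta replicate 4, and Slc22a7 (-0.49) and Slco4c1 (-0.89) without replicate 6. Sign changes with the brightest row were Slc22a15 -0.20, Abcb1a -0.0491, Abcb4 -0.45, Abcc6 -0.20, Slc22a7 0.14, Slco1a1 0.0671 and Slco3a1 0.18. Median centring gave Abcb11 0.0199 and Slco3a1 0.0037, the mean of rows Abcb11 0.0736 and Abcc6 -0.0311, and removal of the dimmer rows Abcb11 0.23. With B6-TGFbeta replicate 3 alone the values were Abcb1b 0.0525, Abcb4 -0.028, Abcc6 -0.22, Slc47a2 -0.33, Slco1a4 0.0227 and Slco3a1 0.0418, and on the mean of rows Abcb11 0.0248, Abcb1b 0.12, Abcc6 -0.17, Slc22a3 -0.0305, Slc47a2 -0.13 and Slco3a1 0.0132. With 1 array omitted, ranges across 0 under median polish and on the mean of rows were -0.0332 to 0.0283 and -0.0198 to 0.13 for Abcb11, -0.0589 to 0.30 and -0.0935 to 0.29 for Abcb1a, -0.0528 to 0 and -0.0936 to 0.0396 for Abcc6, -0.0938 to 0.0584 and -0.0268 to 0.11 for Slc47a2, -0.016 to 0.44 and -0.12 to 0.43 for Slco2a1, -0.0384 to 0.16 and 0.0184 to 0.17 for Slc22a3, and -0.0761 to 0.0405 and -0.0633 to 0.0603 for Slco3a1.

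No paired analysis was possible because the groups share no replicate numbers. Limits are 3 arrays per group, levels near the dim end for 16 of the 61 genes, rows shared by close relatives among the Slc22a genes, and tissue RNA without cell counts. A further limit is that the match of the probes to CBA sequences was not checked. Fits with an omitted array on the mean of rows were added after the data were seen.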

Other observations

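Genes that depend on sex or on neighbouring tissue were read because several transporter genes are known to differ between male and female mouse kidney. Xist, the RNA of the silenced X chromosome, measured 4.24 to 4.56 on the CBAxB6-TGFbeta arrays and 4.29 to 4.72 on the B6-TGFbeta arrays. Its mean level stood at percentile 8.3 of all genes, while the Y-linked genes Kdm5d, Eif2s3y and Uty stood at 81.6, 80.5 and 70.9. By these levels of Xist, which has 1 row, and of the Y-linked genes, all 6 arrays read as male, a sex that the labels do not state. The Y-linked gene Kdm5d measured 8.68 to 8.78 on the CBAxB6-TGFbeta arrays and 8.51 to 8.66 on the B6-TGFbeta arrays. The ranges of the groups overlapped for Xist and for the Y-linked genes Eif2s3y and Uty, and did not for Kdm5d. None of these genes passed. Slco1a1, a carrier known for a high level in male mouse kidney, measured 4.03, 4.03 and 3.87 on the CBAxB6-TGFbeta arrays and 4.14, 4.19 and 4.14 on the B6-TGFbeta arrays. It stood in the dimmest 25% of genes on this array. Kap, an androgen-regulated gene of the proximal tubule, was lower in CBAxB6-TGFbeta (log2 difference -0.98, SE 0.17), while Cyp2e1, Cyp7b1, Cyp4b1 and Acsm3 had log2 differences of 0.25, 0.20, -0.01 and 0.00 after rounding and did not pass. Of the female-biased genes measured, Cyp4a14 was lower (log2 difference -1.72, SE 0.10) and Slc7a12 did not pass (log2 difference -0.43, SE 0.26). The mean levels of Cyp4a14 and Slc7a12 stood high, at percentiles 95.0 and 98.2 of all genes. How these high levels relate to the male reading was not tested.

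The 4 liver markers did not move together. Alb measured 10.94 on CBAxB6-TGFbeta replicate 6 and 9.45 on B6-TGFbeta replicate 2, against 6.00 to 6.29 on the other arrays. Apoa1 was also highest on these arrays, at 7.91 and 7.10, while Serpina1a, at 5.64 and 5.84, lay close to its other values of 5.47 to 5.77. Ttr measured 11.21 to 11.45 on the CBAxB6-TGFbeta arrays and 11.02 to 11.35 on the B6-TGFbeta arrays. No liver marker passed.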
